A study of Mus musculus with 21 samples.

Results

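The cAMP response element (CRE) is the palindromic 8-base site that CREB1 is known for. The set described here is that palindrome and the 24 8-mers that differ from it at 1 base, 25 of the 65535 8-mers whose binding was scored on each array. Members were chosen by sequence alone: each 8-mer name in the deposited matrix was complemented base by base, which gives the strand that can carry a modified cytosine, read 5′ to 3′, and the 25 sequences were then looked up. All 25 were present, and each was carried by 15 to 19 of the 40330 array probes (433 distinct probes, of which 2 carried more than 1 member), against a median of 17 probes for all 8-mers.

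The measurements came from protein binding microarrays, in which a tagged protein is bound to an array of double-stranded DNA probes and the fluorescence of each spot reports how much protein it holds. The proteins were the bZIP DNA-binding domains alone, joined to glutathione S-transferase (GST) and made by cell-free transcription and translation: CEBPB(V285A), in which a valine is replaced by alanine, CREB1(A297V), in which an alanine is replaced by valine, CEBPB and CREB1. The second strand of the probes was synthesised with 5-hydroxymethylcytosine (5hmC), 5-methylcytosine (5mC) or ordinary cytosine (C), so that a modified base lay on 1 strand only. CEBPB(V285A) was measured on 2 arrays each of 5hmC, 5mC and C, CREB1(A297V) on 4 arrays of 5hmC and 2 each of 5mC and C, CEBPB on 2 arrays of 5hmC, and CREB1 on 2 arrays of 5hmC, 1 of 5mC and 2 of C. These 21 arrays form 10 groups. Nothing in the labels says that replicates came from separate protein preparations, so p-values measure the spread between arrays, which may be technical.

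CREB1 and CEBPB bind DNA as dimers through a basic region that enters the major groove, each monomer reading 1 side of the site. CREB1 relays cAMP signals to genes whose promoters hold the CRE, in which each side reads TGAC and the centre is a CG dinucleotide, the place where mammalian DNA is methylated. CEBPB, a factor of fat cell, liver and immune gene programmes, prefers the side GCAA, and PAR-family bZIP proteins prefer GTAA, so that a CRE with 1 changed base can be a site for CREB1 on one side and a PAR-like site on the other.

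The sequences are shown because all results turn on which base is changed and on which strand the modification lies. The changed base is in capitals, positions are counted from 1 at the 5′ end of the strand that carries the modification, and each name gives the palindrome's base, the position and the member's base.
CRE palindrome: tgacgtca
T1A: Agacgtca
T1C: Cgacgtca
T1G: Ggacgtca
G2A: tAacgtca
G2C: tCacgtca
G2T: tTacgtca
A3C: tgCcgtca
A3G: tgGcgtca
A3T: tgTcgtca
C4A: tgaAgtca
C4G: tgaGgtca
C4T: tgaTgtca
G5A: tgacAtca
G5C: tgacCtca
G5T: tgacTtca
T6A: tgacgAca
T6C: tgacgCca
T6G: tgacgGca
C7A: tgacgtAa
C7G: tgacgtGa
C7T: tgacgtTa
A8C: tgacgtcC
A8G: tgacgtcG
A8T: tgacgtcT

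Of the 24 mismatch members, 18 keep the central CG and 6, changed at position 4 or 5, break it. The palindrome reads the same on both strands, but the mismatch members form 12 pairs in which one sequence is the reverse complement of the other. Both sequences of a pair are the same duplex with the modified strand swapped: tTacgtca and tgacgtAa, for example, hold 2 cytosines and 1 cytosine on the strand that is modified. This reading takes the printed probe as the template of the synthesised strand, which the files do not state.

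Values are the authors' Z-scores, 1 per 8-mer and array, with a median within 0.00092 of 0 on every array and a maximum between 15.7 and 256. They were not scaled between arrays, so they rank 8-mers within an array and are no measure of affinity. Differences between groups therefore also carry the range of scores of each array, and are not differences in preference alone. On C, for example, the maximum was 62.8 and 47.5 on the CREB1(A297V) arrays, against 213 and 177 on the CREB1 arrays. Replicate 1 and replicate 2 of a group correlated at r = 0.484 to 0.968 over all 8-mers, lowest for CREB1(A297V) on 5hmC, whose replicate 3 was dim (highest probe intensity 2001). Groups were compared by limma on the Z-scores of all 8-mers, with 1 spread per 8-mer shared by all groups, and a member was called at a Benjamini-Hochberg adjusted p under 0.05 over all 8-mers. CREB1 on 5mC has 1 array, so its p-values assume that this array varies like the other groups. Whether the arrays of 2 groups overlap is a description, given without the share over all 8-mers or all pairs. Counts of members or pairs without overlap are therefore not results about the members. No called member or pair overlapped in any comparison of 2 groups, so non-overlap adds nothing to a call. As a second readout the median log2 probe intensity of each 8-mer, relative to the array's median 8-mer, was put through the same test.

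On C, the palindrome stood at the top of the CREB1 arrays, and the 2 sequences of 1 mismatch duplex, C7A and its partner G2T, came next among the members. For both mutants the order was turned: C7A and G2T lay above the palindrome on all 4 arrays. CEBPB(V285A) had Z-scores of 174 and 135 at the palindrome, CREB1(A297V) had 22.9 and 23.3, and CREB1 had 213 and 177. Among all 8-mers the palindrome ranked 5 and 4 on the CEBPB(V285A) arrays, 4 and 6 on the CREB1(A297V) arrays and 1 on both CREB1 arrays. Probe signals were close to the scanner's ceiling at the palindrome on C: 1 of its 19 probes on CEBPB(V285A) replicate 1, and 2 and 5 of 19 on CREB1 replicates 1 and 2, read 65000 or more, so its intensity there is partly capped.

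The cost of a mismatch depended on its position. On C, averaged over the 3 bases possible at a position, Z-scores were highest at position 7 in all 3 groups, with 86.1 ± 11.3 for CEBPB(V285A), 14.6 ± 1.51 for CREB1(A297V) and 39.0 ± 2.70 for CREB1 (SD, n = 2 arrays each). Position 2, its mirror, came next, with 68.3 ± 9.20, 10.3 ± 1.63 and 25.7 ± 2.91 in the same groups. At the outer base of position 1 the averages were 31.9 ± 4.55 for CEBPB(V285A), 1.80 ± 0.321 for CREB1(A297V) and 19.7 ± 2.25 for CREB1. Which positions had the lowest averages differed between the groups. For CREB1 they were positions 3 and 4, with 4.24 ± 1.15 and 4.84 ± 2.27. For CEBPB(V285A) they were position 3 (9.47 ± 0.146), then positions 6 (10.3 ± 0.516) and 4 (10.4 ± 2.68). For CREB1(A297V) they were position 4 (0.801 ± 0.347) and position 8 (1.20 ± 1.41), followed by position 1 and position 3 (1.91 ± 0.0351). The median of the 18 members that keep the central CG was 19.8 and 19.7 on the CEBPB(V285A) arrays, 1.37 and 2.58 on CREB1(A297V) and 12.6 and 14.9 on CREB1. The 6 that break it had medians of 5.31 and 4.07, 0.810 and 0.933, and 1.67 and 2.25 in the same order.

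Single bases contribute most to the high averages at positions 7 and 2. At position 7, C7T was also high on C, with group means of 47.2 for CEBPB(V285A) and 24.4 for CREB1. C7A (tgacgtAa), which turns one side into the PAR-like half-site GTAA, was the highest mismatch member in all 10 groups. On C it had 211 and 173 on the CEBPB(V285A) arrays, 35.6 and 39.1 on CREB1(A297V) and 69.3 and 83.8 on CREB1. Its reverse complement G2T (tTacgtca) was second in all 3 groups on C, with 185 and 149, 24.4 and 28.9, and 48.2 and 59.7 in the same order. Next came C7T (tgacgtTa) for CEBPB(V285A), with 54.5 and 39.8, G5A (tgacAtca) for CREB1(A297V), with 21.5 and 16.9, and T1C (Cgacgtca) for CREB1, with 27.3 and 32.5. The lowest member was C4A (tgaAgtca) for both mutants (1.41 and 1.18 for CEBPB(V285A), 0.84 and -1.46 for CREB1(A297V)) and G5C (tgacCtca) for CREB1 (1.34 and 1.30). Members held 7, 5 and 7 of the 100 highest 8-mers by group mean for CEBPB(V285A), CREB1(A297V) and CREB1 on C.

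CEBPB(V285A) on C was compared with CREB1 on C to ask how alike their preferences are. CEBPB was not measured on C, so the comparison cannot show what the valine-to-alanine change did to CEBPB. Of 25 members 14 were higher in CEBPB(V285A), 0 were lower and 11 were not called, where 0.926% of all 8-mers were called in either direction. The median difference in Z-score was 6.39 over the members and 0 over all 8-mers. G2T (tTacgtca) differed most of the called members, at 185 and 149 in CEBPB(V285A) against 48.2 and 59.7 in CREB1 (difference 113, SE 9.67, limma adjusted p 3.8e-05). C7T (tgacgtTa) had 54.5 and 39.8 in CEBPB(V285A) against 21.5 and 27.3 in CREB1 (difference 22.8, SE 3.63, limma adjusted p 0.006). G5A (tgacAtca), in which the CG becomes CA, had 49.8 and 34.9 against 18.1 and 21.7 (difference 22.4, SE 4.11, limma adjusted p 0.016). A8G (tgacgtcG) had 45.4 and 32.3 against 17.8 and 23.0 (difference 18.5, SE 2.97, limma adjusted p 0.0064). In these 4 members both CEBPB(V285A) arrays lay above both CREB1 arrays, and the groups did not overlap at 19 of the 25 members. The palindrome itself, lower on both CEBPB(V285A) arrays than on either CREB1 array, was not called (difference -40.4, SE 12.3, adjusted p 0.23 by limma).

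The other called members were T1A, T1C, T1G, G2A, G2C, A3G, A3T, C4T, G5C and A8T, with differences between 3.67 and 16.6. C7A was not called with a difference of 115 (SE 28.1, limma adjusted p 0.087). Without 1 array of another group, CEBPB(V285A) on 5hmC replicate 1, the same difference had an SE of 8.67 and a limma adjusted p of 3.1e-05. On log2 intensity 7 members were called, all higher, against 2.66% of all 8-mers, and G2T was one of them (difference 1.36, limma adjusted p 0.045). After an asinh scale or quantile normalization of the Z-scores 0 of 25 remained called by limma, and 7 were called without CREB1 C replicate 1. The 2 proteins on C also carry different experiment numbers in the deposited files, so that number and the protein cannot be told apart.

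CREB1(A297V) on C was set against the same CREB1 arrays to ask what the opposite change does. Here 13 of 25 members were lower in CREB1(A297V), 0 were higher and 12 were not called, against 1.53% of all 8-mers called, and the median difference was -9.28 over the members and -0.025 over all 8-mers. At the palindrome, CREB1(A297V) had 22.9 and 23.3 against 213 and 177 in CREB1 (difference -172, SE 12.3, limma adjusted p 7.7e-06). T1C (Cgacgtca) had 1.25 and 2.56 against 27.3 and 32.5 (difference -28.0, SE 1.95, limma adjusted p 6.9e-06). C7T (tgacgtTa) had 3.47 and 4.91 against 21.5 and 27.3 (difference -20.2, SE 3.63, limma adjusted p 0.011). A8G (tgacgtcG) had 1.22 and 2.48 against 17.8 and 23.0 (difference -18.5, SE 2.97, limma adjusted p 0.0053). T1C and A8G are the 2 sequences of 1 duplex, unmodified on C, so they are not separate sites, and the count of called members also holds such pairs.

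No array of CREB1(A297V) reached a CREB1 array in those 4 members, as in 22 of the 25 members, called or not. The members that hold a GTAA or TTAC side were not called: C7A had 35.6 and 39.1 in CREB1(A297V) against 69.3 and 83.8 in CREB1 (difference -39.2, limma adjusted p 0.72), and G2T had 24.4 and 28.9 against 48.2 and 59.7 (difference -27.2, limma adjusted p 0.27). G5A overlapped between the groups, with 21.5 and 16.9 in CREB1(A297V) against 18.1 and 21.7 in CREB1. C7A has no settled direction: it was called lower without CEBPB(V285A) 5hmC replicate 1 in the fit (limma adjusted p 0.044) and higher after quantile normalization (difference 31.75, limma adjusted p 0.01), a scaling under which 3 members were called higher and 12 lower. On log2 intensity 15 members were lower, against 3.86% of all 8-mers. Both groups carry the same experiment number, and with only the arrays of that number 9 members were called. The count was 6 without CREB1 C replicate 2 or CREB1(A297V) C replicate 1, and 8 without CREB1(A297V) C replicate 2.

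With 5mC, 21 of 25 members fell for CEBPB(V285A) and 10 of 25 for CREB1. C7A was the highest member for every protein measured on 5mC, as it already was on C for both mutants. For CREB1, on 1 array, it had 23.9 against 22.4 at the palindrome. CEBPB(V285A) fell at 21 of 25 members and rose at 0, where 6.5% of all 8-mers were called, with a median difference of -17.6 over the members and 0.0027 over all 8-mers. G2T (tTacgtca) fell to 16.9 and 14.9 on 5mC, against 185 and 149 on C (difference -151, SE 9.67, limma adjusted p 1.1e-07). The palindrome fell to 16.1 and 21.6 on 5mC, against 174 and 135 on C (difference -136, SE 12.3, limma adjusted p 3.7e-06). C7A (tgacgtAa) had 61.9 and 69.5 on 5mC, against 211 and 173 on C (difference -126, SE 28.1, limma adjusted p 0.012). That call was lost without C replicate 1 (limma adjusted p 0.15), without 5mC replicate 1 (0.079) or 2 (0.063), and with the experiment number as a random block (0.14). C7T (tgacgtTa) had 6.50 and 3.96 on 5mC, against 54.5 and 39.8 on C (difference -41.9, SE 3.63, limma adjusted p 2.3e-06). The 4 members not called were C4A, C4G, G5T and T6G. On log2 intensity 21 members were lower, G5T in place of C7A among them, against 13.2% of all 8-mers; C7A was not called there (difference -1.86, limma adjusted p 0.19).

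After 5mC the ranks of the palindrome were 296 and 239 on the CEBPB(V285A) arrays, against 5 and 4 on C. The next highest mismatch members after C7A and G2T were G5A, with 6.92 and 7.13, and the lowest was A3T (tgTcgtca), with -1.16 and -0.97. C7A gave CEBPB(V285A) its 1 member among the 100 highest 8-mers on 5mC. The 5mC and C arrays of CEBPB(V285A) carry different experiment numbers, which cannot be told apart from the modification.

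CREB1 on 5mC, with 1 array, was lower than CREB1 on C at 10 of 25 members and higher at 0, against 0.826% of all 8-mers called, with a median difference of -10.3 over the members and -0.0788 over all 8-mers. The palindrome had a Z-score of 22.4 on 5mC, against 213 and 177 on C (difference -173, SE 15.1, limma adjusted p 6.6e-05). T1C (Cgacgtca) had 8.12 on 5mC against 27.3 and 32.5 on C (difference -21.8, SE 2.39, limma adjusted p 0.00037). C7T (tgacgtTa) had 3.34 against 21.5 and 27.3 (difference -21.0, SE 4.45, limma adjusted p 0.044). A8G (tgacgtcG) had 2.91 against 17.8 and 23.0 (difference -17.5, SE 3.64, limma adjusted p 0.041). The highest mismatch members were C7A with 23.9, T6C (tgacgCca) with 8.71 and T1C, and the lowest was tgacCtca with -0.78.

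T6C was not called, with 8.71 on 5mC against 9.67 and 15.8 on C. C7A had 23.9 on 5mC against 69.3 and 83.8 on C (difference -52.7, limma adjusted p 0.78; 0.041 without CEBPB(V285A) 5hmC replicate 1). G2T had 5.80 on 5mC against 48.2 and 59.7 on C and was not called on Z-scores (difference -48.1, limma adjusted p 0.098), but it was on log2 intensity (difference -2.81, limma adjusted p 0.00024), where 16 members were lower against 3.59% of all 8-mers. All arrays of this comparison carry 1 experiment number, and with only the arrays of that number 10 members were again called. Without CREB1 C replicate 2 the count was 6, with C7T and A8G no longer called, and without CREB1(A297V) 5hmC replicate 3 it was 7.

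CREB1(A297V) on 5mC against C gave 0 called members of 25 by limma on Z-scores (5 at an unadjusted p under 0.05), where 0.0336% of all 8-mers were called; the median difference was -1.19 over the members and 0.06 over all 8-mers. The palindrome had 9.18 and 2.68 on 5mC, against 22.9 and 23.3 on C (difference -17.2, SE 12.3, limma adjusted p 0.68). That SE uses the spread shared by all groups, while the SDs of these 2 groups were 4.60 on 5mC and 0.249 on C. C7A overlapped between the forms, with 35.0 and 45.2 on 5mC against 35.6 and 39.1 on C (difference 2.77, limma adjusted p 0.99). After C7A the highest mismatch members on 5mC were G5A with 6.59 and 4.74 and G2T with 7.54 and 2.97, and the lowest was tgacCtca with -0.08 and -0.37. On log2 intensity 6 members were lower, against 4.68% of all 8-mers. They were T1A, G2T, C4T, G5A, T6A and A3T, with G2T lower by 2.03 log2 units (difference -2.03, limma adjusted p 0.0039).

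With 5hmC most members also fell for CEBPB(V285A). Of 25 members 22 were lower on 5hmC than on C, 0 were higher and 3 were not called, against 7.26% of all 8-mers, with a median difference of -18.3 over the members and 0.0031 over all 8-mers. G2T had 6.56 and 6.05 on 5hmC, against 185 and 149 on C (difference -161, SE 9.67, limma adjusted p 2.2e-07). The palindrome had 10.8 and 6.48 on 5hmC, against 174 and 135 on C (difference -146, SE 12.3, limma adjusted p 4.5e-06). T1C (Cgacgtca) had 0.63 and 1.02 against 47.1 and 41.4 (difference -43.4, SE 1.95, limma adjusted p 2.5e-08). C7T (tgacgtTa) had 9.72 and 4.05 against 54.5 and 39.8 (difference -40.3, SE 3.63, limma adjusted p 8.3e-06).

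C7A was not called. It had 204.5 and 63.8 on 5hmC, against 211 and 173 on C, and the groups overlapped (difference -57.8, SE 28.1, limma adjusted p 0.27). It ranked 3 and 6 among all 8-mers on the 2 CEBPB(V285A) 5hmC arrays, while the palindrome ranked 269 and 546. Without replicate 1 on 5hmC, the array with 204.5, C7A was lower on 5hmC (difference -128, limma adjusted p 1.8e-05); without replicate 2 the direction turned (difference 12.6, limma adjusted p 0.62). After C7A, G5A (13.0 and 4.46) and C7T were the highest mismatch members on 5hmC, and A3T (tgTcgtca) was the lowest with -1.25 and -1.04. On log2 intensity 21 members were lower, against 18.9% of all 8-mers.

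CREB1 on 5hmC was lower than on C at 17 of 25 members, higher at 0, and 8 were not called, against 9.58% of all 8-mers; the median difference was -8.58 over the members and 0 over all 8-mers. The palindrome had 19.1 and 38.5 on 5hmC, against 213 and 177 on C (difference -166, SE 12.3, limma adjusted p 5.8e-06). G2T had 2.98 and 3.49 against 48.2 and 59.7 (difference -50.7, SE 9.67, limma adjusted p 0.0065). T1C had 3.43 and 4.57 against 27.3 and 32.5 (difference -25.9, SE 1.95, limma adjusted p 6.2e-06). C7T had 9.51 and 5.88 against 21.5 and 27.3 (difference -16.7, SE 3.63, limma adjusted p 0.013).

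C7A was not called for CREB1, with 52.6 and 56.8 on 5hmC against 69.3 and 83.8 on C (difference -21.8, SE 28.1, limma adjusted p 0.68; 0.13 without CEBPB(V285A) 5hmC replicate 1). The next mismatch members on 5hmC, all below the palindrome, were T6C (6.18 and 10.5) and T6A (6.34 and 9.21), and the lowest was tgacCtca (-0.57 on both arrays). The log2 intensity called 20 members, 19 lower and 1, tgacgGca, higher, against 37.7% of all 8-mers. On Z-scores 8 members were called without CREB1 C replicate 2 or CREB1 5hmC replicate 2, 7 without CREB1 5hmC replicate 1 and 7 with the experiment number as a random block. The 5hmC and C arrays of CREB1 and of CEBPB(V285A) carry different experiment numbers.

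CREB1(A297V) on 5hmC was near background at nearly all members. The palindrome had 0.56, 0.53, -0.34 and 1.41 on 5hmC, against 22.9 and 23.3 on C (difference -22.6, SE 10.7, limma adjusted p 0.32), and it ranked between 6887 and 39558 among the 65535 8-mers on 5hmC. The SE uses the spread shared by all groups. The SD at the palindrome was 0.713 on 5hmC and 0.249 on C for CREB1(A297V), but 24.9 for CREB1 on C. Only 2 of 25 members were called on Z-scores, both lower on 5hmC, against 0.343% of all 8-mers, and the median difference was -1.71 over the members and -0.0145 over all 8-mers. They were T6A (tgacgAca), with 1.13, 0.79, -0.06 and 0.28 on 5hmC against 8.10 and 12.5 on C (difference -9.76, SE 1.47, limma adjusted p 0.029), and A3T (tgTcgtca), with -1.66, -2.25, -2.36 and 0.05 against 5.83 and 4.10 (difference -6.52, SE 0.704, limma adjusted p 0.0019). C7A had 12.4, 15.8, 18.0 and 13.8 on 5hmC against 35.6 and 39.1 on C (difference -22.4, limma adjusted p 0.70).

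All 4 arrays on 5hmC lay below both arrays on C at each of those 4 members, as at 16 of the 25 members. G5A and C7T followed C7A on 5hmC, with group means of 5.39 ± 2.25 and 1.34 ± 0.704 (SD, n = 4 arrays), and A3T was the lowest member. On log2 intensity 12 members were lower, against 14.8% of all 8-mers, with the palindrome (difference -3.15, limma adjusted p 0.00030) and G2T (difference -3.62, limma adjusted p 4.2e-08) among them. Of the 4 arrays 2 carry the experiment number of the C arrays, and with those alone 0 members were called on Z-scores by limma. Without either C replicate 1 member stayed called.

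The difference between the 2 sequences of some duplexes changed between modified arrays and C arrays. On C both sequences of a pair are the same unmodified duplex, and their Z-scores still differed: G2T minus C7A was -26.2 and -23.3 for CEBPB(V285A), -11.2 and -10.2 for CREB1(A297V) and -21.2 and -24.1 for CREB1. The test therefore compares the pair difference on modified arrays with that on C. With 5hmC, G2T minus C7A was -198 and -57.7 for CEBPB(V285A), against -26.2 and -23.3 on C (difference -103, SE 30.9, limma adjusted p 0.074). For CREB1 it was -49.7 and -53.3 on 5hmC, against -21.2 and -24.1 on C (difference -28.85, SE 30.9, limma adjusted p 0.56). For CREB1(A297V) it ranged from -16.75 to -12.2 over 4 arrays on 5hmC, against -11.2 and -10.2 on C (difference -3.54, SE 26.8, limma adjusted p 0.96). In each protein no 5hmC array overlapped a C array, with C7A, the sequence with 1 modified cytosine, the higher of the pair on all arrays. The groups did not overlap at 10, 4 and 7 of the 12 pairs for CEBPB(V285A), CREB1(A297V) and CREB1, a description given without the share over all pairs.

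That pair was singled out after its values were seen, and the size of its change depends on which of the CEBPB(V285A) 5hmC arrays is kept. For CEBPB(V285A) the change was -173 without 5hmC replicate 2 (limma adjusted p 5e-07). Without CEBPB(V285A) 5hmC replicate 1 it was -33.0 for CEBPB(V285A) (limma adjusted p 0.048), -28.85 for CREB1 (0.01) and -3.54 for CREB1(A297V) (0.80). On log2 intensity the change with 5hmC was -3.27 for CEBPB(V285A) (limma adjusted p 0.00074), -2.81 for CREB1 (0.00028) and -1.70 for CREB1(A297V) (0.021). With 5mC the Z-score changes were -25.1 for CEBPB(V285A) (limma adjusted p 0.89), -24.2 for CREB1(A297V) (0.86) and 4.57 for CREB1 (1). The log2 changes, of the opposite sign for CREB1, were -1.53 for CEBPB(V285A) (limma adjusted p 0.12), -2.25 for CREB1(A297V) (0.021) and -1.22 for CREB1 (0.43).

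Over the 12 pairs, counted with the mismatch in the first 4 positions minus its reverse complement, CEBPB(V285A) with 5mC changed at 5 pairs (3 up and 2 down), against 5.18% of all pairs of 8-mers. G2A minus C7T was -4.89 and -2.48 on 5mC, against -34.3 and -21.8 on C (difference 24.4, SE 2.71, limma adjusted p 2.4e-06). C4T minus G5A was -3.66 and -5.63 against -16.7 and -12.7 (difference 10.1, SE 2.60, limma adjusted p 0.023), and T1G minus A8C was 2.50 and 1.00 against 11.6 and 11.0 (difference -9.54, SE 0.969, limma adjusted p 6.3e-07). In all 3 pairs the modified arrays lay nearer to 0 than the C arrays, at members whose own scores had fallen to single digits. The other 2 pairs changed sign: C4G minus G5C was 1.58 ± 0.894 on 5mC against -2.68 ± 0.617 on C (difference 4.26, SE 0.667, limma adjusted p 0.0002), and A3C minus T6G was -2.56 ± 0.827 against 3.08 ± 2.02 (SD, n = 2 each; difference -5.65, SE 0.936, limma adjusted p 0.0004). The signs of the first 3 on an asinh scale, and of C4T minus G5A on log2 intensity, were the opposite.

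With 5hmC, 3 pairs changed for CEBPB(V285A) (1 up and 2 down), against 3.76% of all pairs. G2A minus C7T was -8.81 and -3.26 on 5hmC, against -34.3 and -21.8 on C (difference 22.0, SE 2.71, limma adjusted p 3.7e-05), with the opposite sign on an asinh scale. T1G minus A8C was 0.27 and -1.99 against 11.6 and 11.0 (difference -12.2, SE 0.969, limma adjusted p 1.5e-07), and A3C minus T6G was -0.12 and -0.95 against 1.66 and 4.51 (difference -3.62, SE 0.936, limma adjusted p 0.033).

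For CREB1, 4 pairs changed with 5hmC (1 up and 3 down), against 15.5% of all pairs. T1C minus A8G was -3.59 and -2.17 on 5hmC, against 9.57 and 9.50 on C (difference -12.4, SE 1.52, limma adjusted p 2.2e-05), so that the higher sequence of the pair differed between 5hmC and C. C4T minus G5A was 2.05 and 0.17 against -11.0 and -6.77 (difference 9.98, SE 2.60, limma adjusted p 0.015), and T1A minus A8T was negative on 5hmC (-2.45 ± 0.384) against 1.73 ± 2.29 on C (SD, n = 2 each; difference -4.19, SE 1.35, limma adjusted p 0.043). T1G minus A8C was 0 and -1.33 against 3.65 and 1.91 (difference -3.44, SE 0.969, limma adjusted p 0.022). The count was 1 without CREB1 C replicate 1, CREB1 5hmC replicate 1 or CREB1 5hmC replicate 2. No pair of 12 was called with 5mC for CREB1 (4 at an unadjusted p under 0.05; 0.695% of all pairs) or CREB1(A297V) (2 at an unadjusted p under 0.05; 0.0276% of all pairs) by limma. CREB1(A297V) with 5hmC changed at 1 pair, C4T minus G5A, which averaged -5.09 ± 2.60 on 5hmC (SD, n = 4) against -17.2 ± 3.97 on C (SD, n = 2) (difference 12.1, SE 2.25, limma adjusted p 0.026; 0.64% of all pairs), and at 0 without CREB1(A297V) C replicate 1, C replicate 2 or 5hmC replicate 4.

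Proteins were also compared on 5hmC, the only form on which CEBPB was measured. These 3 comparisons share the CREB1 arrays. The palindrome had 10.8 and 6.48 for CEBPB(V285A), 0.56, 0.53, -0.34 and 1.41 for CREB1(A297V), 8.74 and -0.65 for CEBPB and 19.1 and 38.5 for CREB1. It was not called against CREB1 on Z-scores for any of the 3 (limma adjusted p 0.47, 0.12 and 0.35) and was called lower on log2 intensity in each (difference -2.29, -3.40 and -2.37; limma adjusted p 0.0034, 2.2e-06 and 0.0026). The CEBPB replicates disagreed at this member, where it ranked 52 on one array and 50075 on the other.

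T6C (tgacgCca) and T6A (tgacgAca), both changed at position 6, were lower than in CREB1 for all 3 proteins. T6C had 0.38 and 1.04 for CEBPB(V285A), -0.51, -2.50, -1.74 and -0.84 for CREB1(A297V), and 1.51 and -0.82 for CEBPB, against 6.18 and 10.5 for CREB1 (differences -7.63, -9.74 and -7.99; limma adjusted p 0.025, 0.0014 and 0.022). T6A had 0.62 and 0.79 for CEBPB(V285A), 1.13, 0.79, -0.06 and 0.28 for CREB1(A297V), and 0.97 and 0.06 for CEBPB, against 6.34 and 9.21 for CREB1 (differences -7.07, -7.24 and -7.26; limma adjusted p 0.033, 0.0086 and 0.032). No array of the 3 proteins reached a CREB1 array in either member. In the 3 comparisons, in the same order, 19, 16 and 22 of the 25 members did not overlap. T6C and T6A were the 2 members called for CEBPB(V285A), against 3.99% of all 8-mers called. CREB1(A297V) had 4 (8.77% of all 8-mers), with C7G (tgacgtGa, -7.84, limma adjusted p 0.022) and T6G (tgacgGca, -3.71, limma adjusted p 0.0032) added, and CEBPB had 3 (3.34% of all 8-mers), with T6G added (-3.05, limma adjusted p 0.04). C7G ranged from -1.46 to 0.53 in CREB1(A297V), against 8.73 and 6.28 in CREB1, and T6G had 1.16 and -0.96 in CEBPB and ranged from -1.24 to -0.02 in CREB1(A297V), against 2.97 and 3.33 in CREB1.

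Median differences over the members were -0.873, -2.92 and -2.40 for CEBPB(V285A), CREB1(A297V) and CEBPB, against 0.0154, -0.0043 and 0.0132 over all 8-mers. On log2 intensity, 13, 17 and 15 members were lower than in CREB1 and 0 higher, against 25.3%, 44.6% and 23.9% of all 8-mers. The Z-score counts were 0 for each protein without CREB1 5hmC replicate 2, and 1 for CEBPB(V285A) and for CEBPB without CREB1 5hmC replicate 1. They were 0 and 1 for CEBPB(V285A) without its own replicate 1 and 2, and 1 and 0 for CEBPB without its own replicate 1 and 2. C7A was not called against CREB1 for any of the 3, with differences of 79.4, -39.7 and -39.9 (limma adjusted p 0.15, 0.34 and 0.54). Without CEBPB(V285A) 5hmC replicate 1 they were 9.07, -39.7 and -39.9 (0.73, 0.0065 and 0.024). Without its replicate 2 the first was 150 (5.7e-06), and after quantile normalization the second was 1.45 (0.9). CEBPB(V285A) and CREB1(A297V) replicate 4 carry another experiment number than CREB1, as do the other CREB1(A297V) replicates, while CEBPB shares that of CREB1; with only the arrays of that number 6 members were called between CEBPB and CREB1.

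Between CEBPB(V285A) and CEBPB on 5hmC, 1 of 25 members was called, against 2.6% of all 8-mers, and the median difference was 0.563 over the members and 0 over all 8-mers. It was C7A, with 204.5 and 63.8 in CEBPB(V285A) against 14.7 and 15.0 in CEBPB (difference 119, SE 28.1, limma adjusted p 0.039). Both CEBPB(V285A) arrays lay above both CEBPB arrays at C7A, in a comparison where 12 of 25 members did not overlap. The difference was 49.0 without CEBPB(V285A) 5hmC replicate 1 (limma adjusted p 0.035) and 189.7 without replicate 2 (6.1e-07), and the call was lost without either CEBPB array, while log2 intensity called 0 of 25 members by limma, against 7.07% of all 8-mers, with C7A at 2.06 (adjusted p 0.16). In CEBPB on 5hmC the highest mismatch members after C7A were G5A with 4.95 and 3.28 and C7T with 2.58 and 1.99, and the lowest was A3T with -0.56 and -1.26.

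Whether a modification acts unequally on 2 proteins was tested as a difference of differences. The effect of 5mC was more negative for CEBPB(V285A) than for CREB1(A297V) at 17 of 25 members and less negative at 0, against 3.49% of all 8-mers called. G2T led, with a 5mC effect of -151 for CEBPB(V285A) against -21.4 for CREB1(A297V) (difference -130, SE 13.7, limma adjusted p 4.2e-05). The palindrome had -136 against -17.2 (difference -119, SE 17.4, limma adjusted p 0.00087), C7T had a difference of -40.7 (SE 5.13, limma adjusted p 0.00022) and T1C one of -36.9 (SE 2.76, limma adjusted p 1.6e-06). On C the group means of CREB1(A297V) and CEBPB(V285A) were 1.90 and 44.2 at T1C, 4.19 and 47.2 at C7T, 23.1 and 155 at the palindrome and 26.7 and 167 at G2T. From such starts CREB1(A297V) could not fall as far as CEBPB(V285A) did, so the sign of the contrast there depends on the scores on C.

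The effect of 5hmC was more negative for CEBPB(V285A) than for CREB1 at 13 of 25 members and less negative at 0, against 1.98% of all 8-mers. The largest differences were at G2T (-110, SE 13.7, limma adjusted p 0.0008), A8G (-25.0, SE 4.20, limma adjusted p 0.0064), C7T (-23.6, SE 5.13, limma adjusted p 0.029) and C4T (tgaTgtca, -19.9, SE 3.87, limma adjusted p 0.016). The palindrome was not called, with a 5hmC effect of -146 for CEBPB(V285A) against -166 for CREB1 (difference 20.2, SE 17.4, limma adjusted p 0.7). C4T had 2.08 and 4.53 for CEBPB(V285A) on 5hmC against 33.1 and 22.1 on C, and 6.69 and 6.58 for CREB1 on 5hmC against 7.15 and 14.9 on C. At G2T, A8G and C7T, CEBPB(V285A) also started higher on C than CREB1, with group means of 167 against 53.9, 38.85 against 20.4 and 47.2 against 24.4. The contrast there depends on these starting scores as well.

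For CREB1(A297V) the effect of 5hmC was less negative than for CREB1 at 5 of 25 members and more negative at 0, against 0.711% of all 8-mers. The palindrome led, with an effect of -22.6 for CREB1(A297V) against -166 for CREB1 (difference 144, SE 16.3, limma adjusted p 0.00067), followed by T1C (23.7, SE 2.58, limma adjusted p 0.00053), T1A (11.5, SE 1.88, limma adjusted p 0.0091) and G2A (9.31, SE 1.16, limma adjusted p 0.0012). These contrasts add up Z-scores, and CREB1(A297V) started from 22.9 and 23.3 on C at the palindrome where CREB1 started from 213 and 177. On an asinh scale 0 of 25 members were called by limma in any of the 3 contrasts, and on log2 intensity 15, 19 and 6 were, with the palindrome's difference between CREB1(A297V) and CREB1 at -0.42, the opposite direction. In that contrast 5 members were less negative and 1 more negative on log2 intensity, and 6 and 1 after quantile normalization. The 5hmC contrast of CEBPB(V285A) with CREB1 had 7 called members without CREB1 5hmC replicate 1 or 2, and 3 with the experiment number as a random block.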

How the data were processed

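DNA binding was measured for 4 bZIP DNA-binding domains on 21 arrays in 10 groups, taken from the sample labels. The authors deposited 1 Z-score per 8-mer and array, a score whose computation is not given in the sources used here, and scanner tables whose columns, per the file headers, hold the intensity of each spot before normalization.

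Differences between groups were tested on the Z-scores of all 65535 8-mers with limma 3.58.1 (R 4.3.3; lmFit and eBayes with a mean trend, 1 coefficient per group, all 21 arrays), with Benjamini-Hochberg adjustment and a threshold of 0.05. Pair differences were tested in the same way over all reverse-complement pairs. No pseudocount or filter was used. As an alternative, spot intensity was background-corrected (normexp), and the median log2 intensity of each 8-mer's probes, less the array's median 8-mer, was tested alike. Log2 values are this derived unit; the authors deposited no log2 values. Other alternatives were an asinh scale, quantile normalization, the replicate number as a block, the experiment number as a random block or held fixed, and leaving out each array. Leaving out CEBPB(V285A) 5hmC replicate 1 or CREB1(A297V) 5hmC replicate 3 from comparisons of other groups was chosen after seeing the data. The fits were tested on simulated data with 1 spread per 8-mer in all groups, so that test does not cover groups of unequal spread.

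By rule, the palindrome was described in every group, up to 4 called members and 3 called pairs with the largest differences were named per comparison, and the 3 highest mismatch members and the lowest member were named per group; members named beyond this were chosen after their values were seen. The members and comparisons were chosen with earlier results of these data known. Array number limits the precision.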

Additional observations from a re-analysis of the deposited data

Results flagged for a closer look

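Results are listed here where the Z-score change with a modification was called as different between 2 proteins. All are differences of effects in Z-score, from limma. They also depend on the scores on C, which were not scaled between arrays. The 5mC effect differed between CEBPB(V285A) and CREB1(A297V) at 17 of 25 members, with T1C (Cgacgtca) at -36.9, G2T (tTacgtca) at -130, C7T (tgacgtTa) at -40.7 and the palindrome at -119. The 5hmC effect differed between CEBPB(V285A) and CREB1 at 13 members, with G2T at -110, C4T (tgaTgtca) at -19.9, C7T at -23.6 and A8G (tgacgtcG) at -25.0. It differed between CREB1(A297V) and CREB1 at 5 members, with T1A (Agacgtca) at 11.5, T1C at 23.7, G2A (tAacgtca) at 9.31 and the palindrome at 144. On an asinh scale 0 of 25 members were called by limma in each of these contrasts. Between CREB1(A297V) and CREB1 the direction turned at the palindrome on log2 intensity (-0.42) and on the asinh scale (-1.40), and at T1A on the asinh scale (-0.026).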

How the results depend on the processing

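Counts of called members of 25, and of pairs of 12, are given where they moved by over 1.5 times; the cause was not tested. On an asinh scale the members called were 0 for CEBPB(V285A) against CREB1 on C, 6 for CREB1(A297V) against CREB1 on C, 0 for CREB1 on 5mC against C, 11 for CREB1 on 5hmC against C, 5 for CREB1(A297V) on 5hmC against C, 15 for CREB1(A297V) against CREB1 and 6 for CEBPB against CREB1 on 5hmC, and 0 for each difference of effects. The pairs called were 0 and 1 for CEBPB(V285A) with 5mC and 5hmC and 2 for CREB1 with 5hmC. Quantile normalization gave, for the comparisons it moved, 0 (CEBPB(V285A) against CREB1 on C), 4 and 6 (CREB1(A297V) on 5mC and 5hmC against C), 7 and 6 (CREB1(A297V) and CEBPB against CREB1 on 5hmC) and 2 (5hmC effect, CEBPB(V285A) against CREB1), with 3, 2, 2 and 2 pairs for CEBPB(V285A) 5mC, CREB1(A297V) 5mC, CREB1 5hmC and CREB1(A297V) 5hmC. Log2 intensity gave 7 for CEBPB(V285A) against CREB1 on C, 16, 6 and 12 for CREB1 5mC, CREB1(A297V) 5mC and CREB1(A297V) 5hmC against C, 13, 17 and 15 for CEBPB(V285A), CREB1(A297V) and CEBPB against CREB1 on 5hmC and 0 for CEBPB(V285A) against CEBPB, with 3, 5, 1 and 2 pairs for CEBPB(V285A) 5mC and 5hmC and CREB1(A297V) 5mC and 5hmC. Direction turned on the asinh scale for the 5hmC effect of CREB1(A297V) against CREB1 at T1A (-0.026) and the palindrome (-1.40), and for pairs of CEBPB(V285A) with 5mC led by T1G (0.89), G2A (-0.22) and C4T (-0.67) and with 5hmC led by G2A (-0.87). On log2 intensity it turned for the palindrome (-0.42) and the CEBPB(V285A) 5mC pair led by C4T (-1.06). For CREB1(A297V) C7A turned after quantile normalization against CREB1 on C (31.75) and on 5hmC (1.45), and on log2 intensity the CREB1 5mC change of the pair G2T and C7A turned (-1.22). Replicate numbers did not pair the arrays (deviations of same-numbered arrays correlated at -0.381 to 0.206 between groups); with the replicate block 6, 1 and 1 members were called for CREB1 5mC, CREB1(A297V) 5mC and CREB1(A297V) 5hmC against C, and 1, 6 and 0 pairs for CREB1(A297V) 5mC, CEBPB(V285A) 5hmC and CREB1(A297V) 5hmC. The experiment number as a random block gave 7 (CEBPB(V285A) against CREB1 on C), 7 (CREB1 5hmC against C), 0, 2 and 0 (on 5hmC, CEBPB(V285A) and CREB1(A297V) against CREB1, CEBPB(V285A) against CEBPB), 3 (5hmC effect, CEBPB(V285A) against CREB1) and 1 CREB1 5hmC pair. Arrays of 1 experiment number gave 0 (CREB1(A297V) 5hmC against C), 6 (CEBPB against CREB1 on 5hmC), 1 CREB1 5mC pair and 0 CREB1(A297V) 5hmC pairs. Leaving out 1 array gave ranges of 7 to 15 and 6 to 15 for CEBPB(V285A) and CREB1(A297V) against CREB1 on C, 6 to 12 for CREB1 5mC, 7 to 17 for CREB1 5hmC and 1 to 2 for CREB1(A297V) 5hmC against C. On 5hmC it gave 0 to 2, 0 to 5 and 0 to 4 for CEBPB(V285A), CREB1(A297V) and CEBPB against CREB1 and 0 to 1 for CEBPB(V285A) against CEBPB. The 5hmC effect of CEBPB(V285A) against CREB1 gave 7 to 15, and pairs gave 1 to 5 (CREB1 5hmC), 0 to 1 (CREB1(A297V) 5hmC) and 0 to 1 (CREB1(A297V) 5mC, with 1 only without CEBPB(V285A) 5hmC replicate 1).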
